A study of Homo sapiens with 9 samples.

Results

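The hairpins hsa-mir-212 and hsa-mir-132 are neighbours in one primary transcript, and they were taken by name as 2 of the 1485 hairpin rows of the deposited count table. The pair was chosen by the measured level of hsa-mir-212, which was much lower in libraries from cells given siRNAs against ERH. Hence the size of that difference, and of any ratio that contains it, is given here as a description without a test. The study sequenced small RNAs of 18 to 30 nt from 2 human cell lines in 9 libraries. HEK293E, an embryonic kidney derived line, was transfected on days 0 and 3 with siGFP, siControl or siERH-3 (replicates 1 and 2 each) or with siERH-5 (replicate 2), and was collected on day 5. K562, a chronic myeloid leukaemia line, was electroporated with siGFP or siERH-5 and collected 4 days later, with 1 library for each siRNA. siGFP and siControl are the control siRNAs, and every library, control or not, came from transfected cells. Whether the replicates were separate cultures is not stated, so the spread between them may be partly technical.

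Most miRNAs are cut out of a long primary transcript in the nucleus by the Microprocessor, a complex of the RNase DROSHA and its RNA-binding partner DGCR8, and are then trimmed to the mature form by DICER1. ERH is a small conserved nuclear protein that binds DGCR8, and it has been linked to the processing of hairpins that are poor substrates by themselves but lie next to a better one, as in the miR-15a and miR-16 pair. miR-212 and miR-132 are transcribed together, are best known from neurons, where the transcription factor CREB induces them, and have been tied to synapse growth.

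The 2 hairpins lie on the minus strand of chromosome 17 (GRCh38), MIR212 at 2050271 to 2050380 and MIR132 at 2049908 to 2050008, with 262 bases between them, so that MIR212 comes first in the transcript. Neither overlaps another gene in GENCODE release 29. The nearest annotated gene is HIC1, which starts 3774 bases away on the opposite strand. The RefSeq hairpins (GRCh38.p14) are shown because the results compare the read counts of these neighbouring stem-loops. They are written 5′ to 3′ with the 5p and 3p mature arms in capitals.
MIR212: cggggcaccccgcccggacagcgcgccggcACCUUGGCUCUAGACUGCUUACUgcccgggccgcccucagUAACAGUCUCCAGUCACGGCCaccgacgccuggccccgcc
MIR132: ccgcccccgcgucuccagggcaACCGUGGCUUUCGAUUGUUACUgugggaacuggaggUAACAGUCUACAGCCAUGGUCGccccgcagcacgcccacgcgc

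The mature arms are shown to compare the seeds, the bases 2 to 8 that pair with target mRNAs, which are in capitals.
hsa-miR-212-3p: uAACAGUCuccagucacggcc
hsa-miR-132-3p: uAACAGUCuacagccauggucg
hsa-miR-212-5p: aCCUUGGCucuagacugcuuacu
hsa-miR-132-5p: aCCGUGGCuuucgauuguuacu

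The 3p arms share the seed, and among 2370 mature human names in the RefSeq table no other name carries it. Counted from the 5′ end, their first 9 bases are identical, and over the 21 positions compared they differ at 4, A10C, C14U, U17C and U20C (miR-132 base first). The 5p arms differ at 8 of 22 positions, 1 of them inside the seed (G4U), so the 5p arms belong to different seed families. The table counts reads per hairpin, so the arms were not separated here, and whether any read was counted at both hairpins was not tested.

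Folded with RNAfold, the annotated MIR212 hairpin of 110 nt had a minimum free energy of -49.9 kcal/mol and that of MIR132, 101 nt long, -46.3 kcal/mol, against a median of -39.3 kcal/mol over 772 measured hairpins. Those hairpins had a median length of 83 nt, so the total energies are not compared at equal length. Per nucleotide, 58.7% of them had an energy as low as that of MIR212 or lower, and 57.3% for MIR132. The energies per nucleotide were -0.454 and -0.458 kcal/mol, so the pair hardly differed in predicted stability. The predicted shapes did differ. MIR132 folded into 1 stem-loop, whereas in MIR212 a second small stem-loop formed in the basal flank before the 5p arm. In MIR212, 5 bases of the 5p arm and 5 of the 3p arm were unpaired, and in MIR132 these were 3 and 4. GC content was 73.6% in MIR212 and 65.3% in MIR132, and the median hairpin had 51.1%.

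The libraries held 2609929 to 3320017 hairpin counts, at which 3 counts, the limit that a count of 0 allows, correspond to 0.904 to 1.15 RPM, the deposited values scaled to the library total. Intervals on counts cover counting error only. Blood-lineage hairpins fixed as K562 markers (hsa-mir-451a, hsa-mir-144, hsa-mir-486-1, hsa-mir-142 and hsa-mir-223) summed to 130027 on that scale in K562 with siGFP and to 1126 to 1637 in HEK293E. The HOX-cluster hairpins fixed for HEK293E summed to 25741 to 38447 there and to 3628 in K562 with siGFP, so both lines had the hairpins their labels imply.

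In HEK293E the first comparison asked how the pair stood when ERH was targeted. hsa-mir-212 had 302 and 278 counts with siGFP and siControl in replicate 1, and 470 and 506 in replicate 2. With siERH-3 it had 44 and 67 counts in replicates 1 and 2, and with siERH-5 it had 42. Scaled to library size with TMM factors of the HEK293E libraries (CPM), these were 86.3, 97.7, 198 and 192 in the controls and 13.0, 20.4 and 11.9 in the siERH libraries. Every siERH library lay below every control library. The control mean was 144 ± 59.9 CPM (SD, n = 4) and the siERH mean 15.1 ± 4.63 CPM (SD, n = 3).

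The group difference of hsa-mir-132 was small, and whether the groups overlapped depended on the scale. It had 2380 and 2548 counts with siGFP and siControl in replicate 1, 2709 and 3223 in replicate 2, and 3258, 3650 and 3311 in the siERH libraries, all above the controls in raw counts. Raw counts also carry library depth. The share of all hairpins whose raw counts did not overlap was not computed, so nothing is read from this separation. In TMM-scaled CPM the controls stood at 680.0, 895, 1142 and 1225 and the siERH libraries at 966, 1114 and 941, entirely inside the control range. The means were 986 ± 247 (SD, n = 4) and 1007 ± 93.4 (SD, n = 3). In the deposited RPM the controls stood at 733, 849, 1038 and 1051 and the siERH libraries at 1054, 1175 and 1020.3. There both siERH-3 libraries lay above every control and siERH-5 lay among the controls, with means of 918 ± 154 (SD, n = 4) and 1083 ± 81.2 RPM (SD, n = 3).

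**Figure D1:**
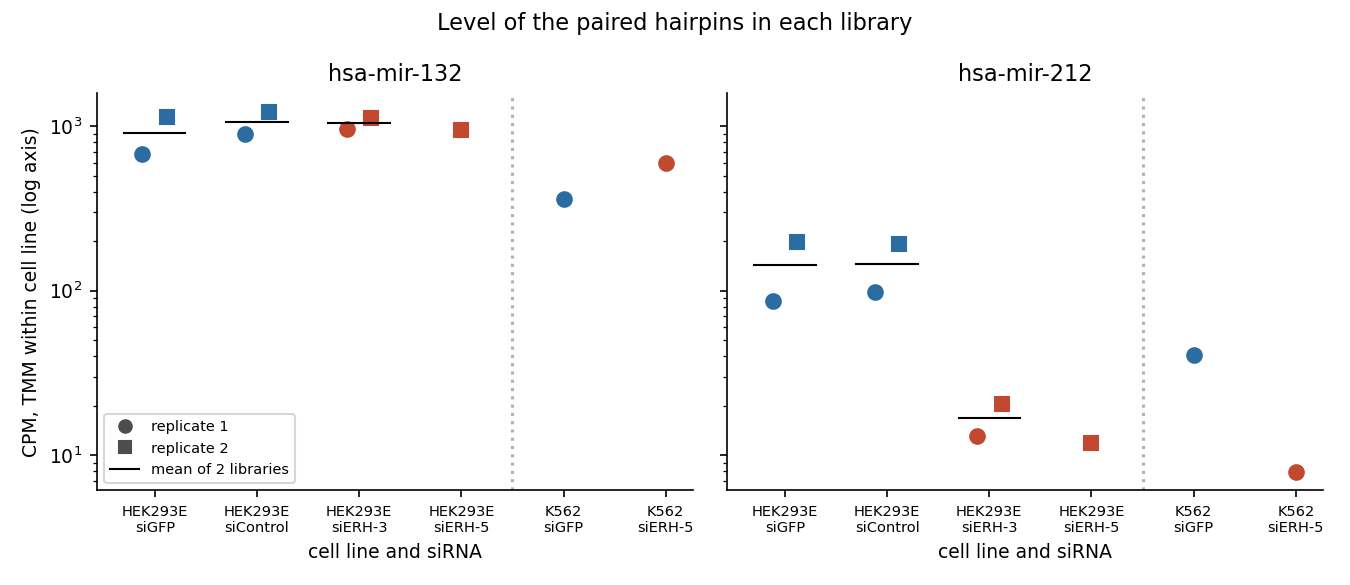
CPM after TMM scaling within each cell line (log axis) of hsa-mir-132 (left) and hsa-mir-212 (right) in each library, by cell line and siRNA, with control siRNAs in blue and siERH in red. Circles are replicate 1, squares replicate 2, and the line is the mean of 2 libraries. The siERH libraries of hsa-mir-212 lie at 7.92 to 20.4 CPM, below every control library of the same line, while those of hsa-mir-132 lie within the HEK293E control range and, in K562, above siGFP.

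The fit across all 773 hairpins put hsa-mir-212 at a log2 fold change of -3.24 ± 0.38 (SE) and hsa-mir-132 at 0.03 ± 0.21 (SE), with an interval of -0.38 to 0.44 for the latter. hsa-mir-212 was the 4th lowest of all. The values on either side of it were -4.21 for hsa-mir-3685 and -3.01 for hsa-mir-124-3, and hsa-mir-132 had one of the 21 smallest changes in size. Over all 773 hairpins, 125 (16.2%) were lower and 184 (23.8%) higher at an adjusted p under 0.05 by edgeR, 40.0% in all. Nothing is read from the place of hsa-mir-212 among them, since it was chosen for this difference. Without siERH-3 replicate 1 or 2, 77 and 76 were lower. In 148 hairpins (19.1%) all siERH libraries were below all controls, hsa-mir-212 among them, and in 44.6% the groups did not overlap in either direction. Scaling by library totals left 67 lower, which were 24.0% of calls against 40.5% with TMM. There the median of all hairpins moved by 0.20, and hsa-mir-212 and hsa-mir-132 stood at -3.03 and 0.24. The sign for hsa-mir-132 was not stable, with values from -0.16 to 0.25 over 18 alternatives.

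By rank within each HEK293E library, a measure that no scaling touches, hsa-mir-212 was the 242nd to 312th most abundant hairpin with control siRNAs and the 472nd to 540th with siERH. hsa-mir-132 was 157th to 178th with control siRNAs and 145th to 149th with siERH, so its ranks did not overlap. A rank also moves when other hairpins change, and the share of all hairpins whose ranks did not overlap was not computed. With TMM-scaled CPM the groups did not overlap in 44.6% of the 773 hairpins, and for hsa-mir-132 they did overlap. The sum of the pair, which share the 3p seed, was 1129 ± 305 CPM (SD, n = 4) in controls and 1022 ± 98.0 CPM (SD, n = 3) with siERH, and with TMM the siERH values of 953 to 1134 lay inside the control range of 766 to 1418. hsa-mir-132 made up most of that sum in every library.

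The ratio of the 2 hairpins within a library does not depend on scaling. hsa-mir-212 made up 11.3% of pair counts with siGFP and 9.84% with siControl in replicate 1, and 14.8% and 13.6% in replicate 2. With siERH-3 its share was 1.33% (95% Wilson interval 0.994% to 1.78%) in replicate 1 and 1.80% (1.42% to 2.28%) in replicate 2, and with siERH-5 it was 1.25% (0.928% to 1.69%). The 3 siERH intervals overlapped each other, and none reached the lowest control interval, which began at 8.79%. Among the 95 pairs of adjacent hairpins described below, the ratios of the groups did not overlap in 37.9%. Nothing is read from the separation here, since hsa-mir-212 was chosen for its fall with siERH. Put as counts, there were 5.76 to 9.17 of hsa-mir-132 for each of hsa-mir-212 in the controls and 54.5 to 78.8 in the siERH libraries.

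**Figure D2:**
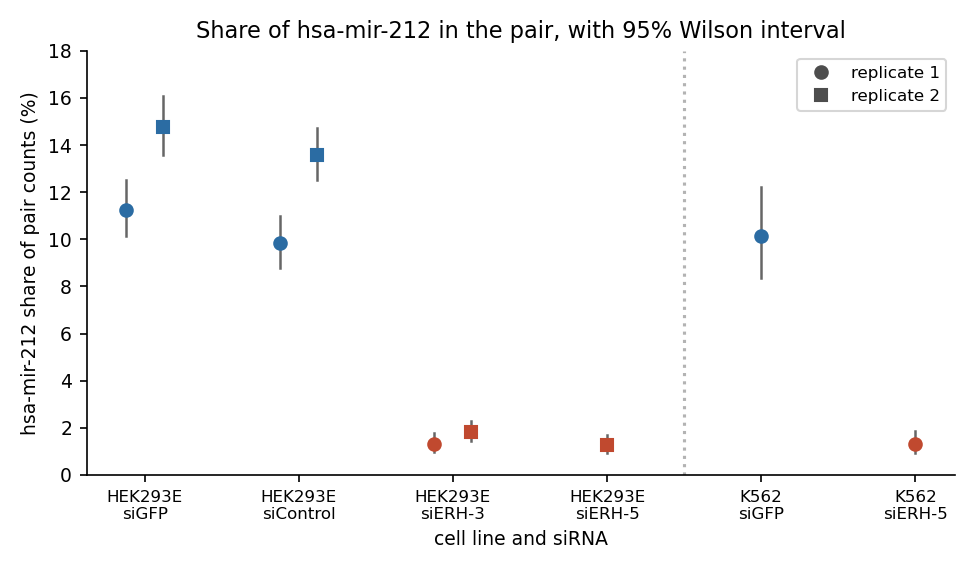
Share of hsa-mir-212 in the summed counts of hsa-mir-212 and hsa-mir-132 (percent) in each of the 9 libraries, by cell line and siRNA, with 95% Wilson intervals as bars. Blue marks control siRNAs, red siERH, circles replicate 1 and squares replicate 2. The 5 control libraries lie between 9.84% and 14.8% and the 4 siERH libraries between 1.25% and 1.80%, in both cell lines.

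The mean log2 ratio of hsa-mir-212 to hsa-mir-132 was -2.84 ± 0.30 (SD, n = 4) in HEK293E controls and -6.09 ± 0.29 (SD, n = 3) with siERH, a difference of -3.25 or 9.51-fold. Within replicate 1, which has 1 siERH library, the difference was -3.12, and within replicate 2 it was -3.44. Against the siGFP and siControl libraries of the same replicate, siERH-3 stood at -3.23 and -3.01 in replicate 1 and at -3.24 and -3.10 in replicate 2, and siERH-5 at -3.77 and -3.63. siERH-3 and siERH-5 of replicate 2 share their controls, and siERH-5 has 1 library, so a difference between the siRNAs was not tested.

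The levels of each hairpin behind these ratios are shown against the controls of the same replicate. In HEK293E, log2 differences in CPM + 1 with TMM ran from -3.95 to -2.64 for hsa-mir-212 and from -0.38 to 0.51 for hsa-mir-132. Those of hsa-mir-212 had 1 sign in all libraries, while those of hsa-mir-132 were above 0 in replicate 1 and below it in replicate 2. On the deposited RPM, siERH-3 of replicate 2 was instead above its controls in hsa-mir-132, by 0.18 and 0.16, and siERH-5 stood at -0.02 and -0.04.

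**Figure D3:**
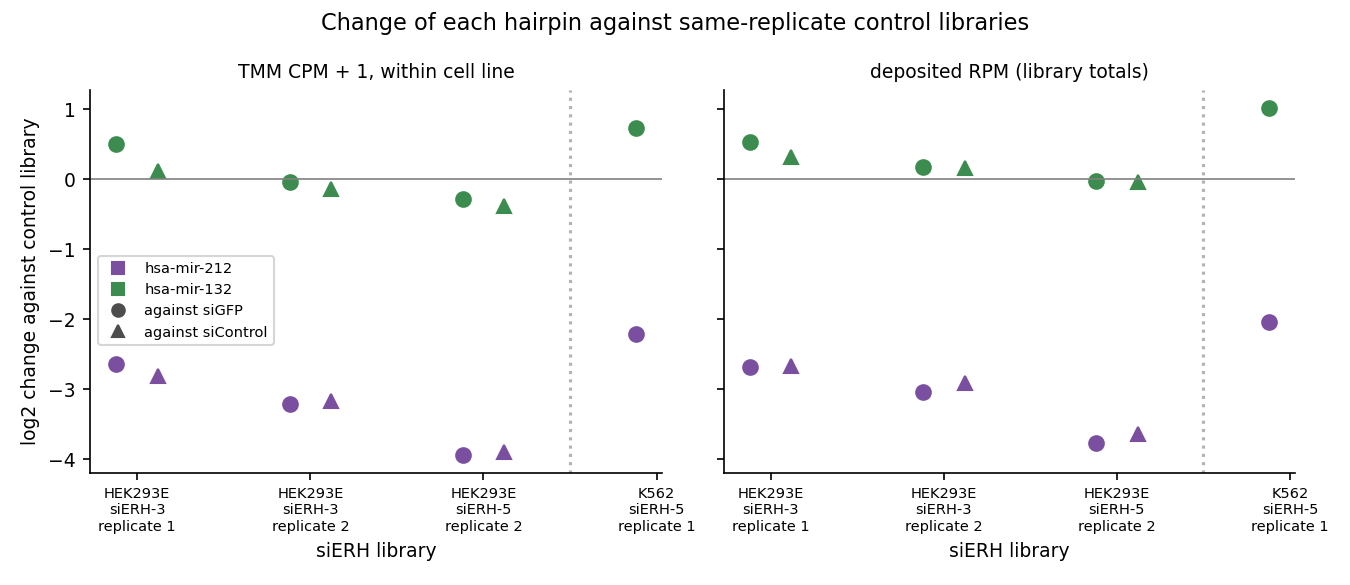
Log2 change of hsa-mir-212 (purple) and hsa-mir-132 (green) in each siERH library against the siGFP (circles) and siControl (triangles) library of the same cell line and replicate, from CPM + 1 with TMM scaling (left) and from the deposited RPM (right). The hsa-mir-212 points lie between -3.95 and -2.04 in both panels, and the hsa-mir-132 points lie between -0.38 and 0.53 in HEK293E and at 0.73 and 1.02 in K562.

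In K562 the pair was measured with siGFP and siERH-5 in 1 library each, which compares those libraries and carries no test. The siGFP library held 96 counts of hsa-mir-212 and 851 of hsa-mir-132, and the siERH-5 library held 29 and 2189. hsa-mir-212 thus made up 10.1% of pair counts in the siGFP library (95% Wilson interval 8.37% to 12.2%) and 1.31% in the siERH-5 library (0.912% to 1.87%). The first value lies inside the HEK293E control range and the second inside the HEK293E siERH range. The log2 ratio differed by -3.09 between the libraries, with an interval of -3.70 to -2.48 from counting error, an 8.52-fold difference.

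Between the 2 K562 libraries, hsa-mir-212 was lower and hsa-mir-132 higher with siERH-5, by amounts that depended on the scale. Single libraries cannot tell this from ordinary spread between libraries. With TMM scaling of the 2 libraries, the log2 difference in CPM + 1 was -2.22 for hsa-mir-212 (counting interval -2.82 to -1.62) and 0.73 for hsa-mir-132 (0.62 to 0.85), while the median of 646 hairpins was 0.11. On the deposited RPM they were -2.04 and 1.02 with a median of 0.39. At least 2-fold lower with TMM were 44 of the 646 hairpins (6.81%), hsa-mir-212 among them, and 65 (10.1%) were at least 2-fold higher, without hsa-mir-132. hsa-mir-132 thus lay above the median on either scale, at the 82.4th percentile with TMM. Whether its change differed between the cell lines was not tested.

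The siGFP libraries allow the pair to be compared between the lines under the same siRNA, in a fit of all 9 libraries with the spread taken from the groups that have 2, so that the single K562 library is assumed to vary like them. The pair was not called different. In K562 against HEK293E, hsa-mir-212 stood at -0.81 ± 0.65 on the log2 scale (SE; adjusted p = 0.330, edgeR) and hsa-mir-132 at -0.35 ± 0.39 (SE; adjusted p = 0.490, edgeR). Of 790 hairpins, 216 (27.3%) were lower and 166 (21.0%) higher, 48.4% in all. On library totals, 400 were lower and 89 higher, the median of all hairpins moved by -1.14, and both were called lower, at -1.89 (edgeR adjusted p = 0.0225) and -1.44 (edgeR adjusted p = 0.00776). The TMM factor was 0.531 for that K562 library and 1.26 and 1.06 for the HEK293E siGFP libraries, and the size of the level difference and its call rest on the scaling, while its sign was below 0 with TMM, DESeq2 size factors (-0.69 and -0.22) and library totals. Without the HEK293E siGFP library of replicate 2 the values were -0.07 and 0.10 with TMM, and without that of replicate 1 they were -1.30 and -0.68.

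Levels on the deposited RPM, which follow library totals, ordered as follows. For hsa-mir-212 the control libraries of HEK293E stood highest (93.0 to 180.4 RPM), then K562 with siGFP (37.1), then the siERH libraries of HEK293E (13.2 to 21.9) and K562 with siERH-5 (9.03). siGFP and siControl did not differ beyond their spread (137 ± 61.6 and 129 ± 51.1 RPM, SD, n = 2 each). siERH-5 had 13.2 RPM and siERH-3 of the same replicate 21.9, a difference that 1 library each cannot test. For hsa-mir-132 the siERH libraries of HEK293E stood highest (1020.3 to 1175 RPM), then its controls (733 to 1051), with ranges that overlapped, and K562 had 326 RPM with siGFP and 659 RPM with siERH-5.

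The background for the pair came from the control siRNAs in HEK293E. Between siControl and siGFP, hsa-mir-212 differed by 0.04 ± 0.51 (log2, SE; edgeR adjusted p = 0.989) and hsa-mir-132 by 0.22 ± 0.34 (SE; edgeR adjusted p = 0.959). edgeR called 0 of 730 hairpins there, 24 had an unadjusted p under 0.05, and DESeq2 called 2 lower and 2 higher. The mean log2 ratio of the pair was -2.93 with siControl and -2.75 with siGFP, which differed by -0.18. It was lower with siControl in both replicates, at -3.20 against -2.98 and at -2.67 against -2.53. An exact permutation test without the pairing gave a two-sided p = 0.667, and with 6 splits it cannot go below 0.333, so it could not pass. A fit blocked on replicate called more. In it 61 of the 730 hairpins were lower and 72 higher in siControl, and neither member of the pair was among them (edgeR adjusted p = 0.823 and 0.146). With 2 libraries per siRNA and a term for replicate, that fit had little left to estimate spread from. Whether its calls are differences between the control siRNAs was not tested. In the controls both hairpins had higher CPM in replicate 2 than in replicate 1 with either siRNA, and hsa-mir-212 had the larger share of the pair there.

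The pair was set beside other neighbouring hairpins, with 0.5 counts added to each count. Of a list of 26 well-known pairs, 25 had a mean of at least 10 counts per HEK293E library in both hairpins. The change of -3.24 for hsa-mir-212 against hsa-mir-132 was the greatest of the 25, followed by -2.30 for hsa-mir-192 against hsa-mir-194-2 and 1.70 for hsa-mir-216a against hsa-mir-217. Nothing is read from this place, since hsa-mir-212 was chosen for its fall with siERH and the list with earlier results known. The other 24 had a median size of change of 0.57, and in 11 of them the siERH and control libraries did not overlap. Over all 95 pairs of adjacent hairpins on 1 strand within 10 kb, the median size was 0.48 and 36 (37.9%) did not overlap. Some of the 95 are pairs of copies with the same or nearly the same values, so they are not all separate measurements.

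hsa-mir-212 with hsa-mir-132 ranked 5th in size among the 95. The 4 ahead of it, named after their values were seen, were hsa-mir-4421 with hsa-mir-6500 (-4.59), hsa-mir-3677 with hsa-mir-940 (-4.15), hsa-mir-331 with hsa-mir-3685 (3.48) and hsa-mir-376c with hsa-mir-544a (-3.30). Of these, hsa-mir-3685, hsa-mir-376c and hsa-mir-544a had means of only 10.6, 13.9 and 17.7 counts per library, against 244 for hsa-mir-212. In K562, 73 of the pairs could be measured, with a median size of 0.44, and hsa-mir-212 with hsa-mir-132 ranked 2nd (-3.07) after hsa-mir-3677 with hsa-mir-940 (-3.16). These ranks too contain the fall for which hsa-mir-212 was chosen, so nothing is read from them.

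**Figure D4:**
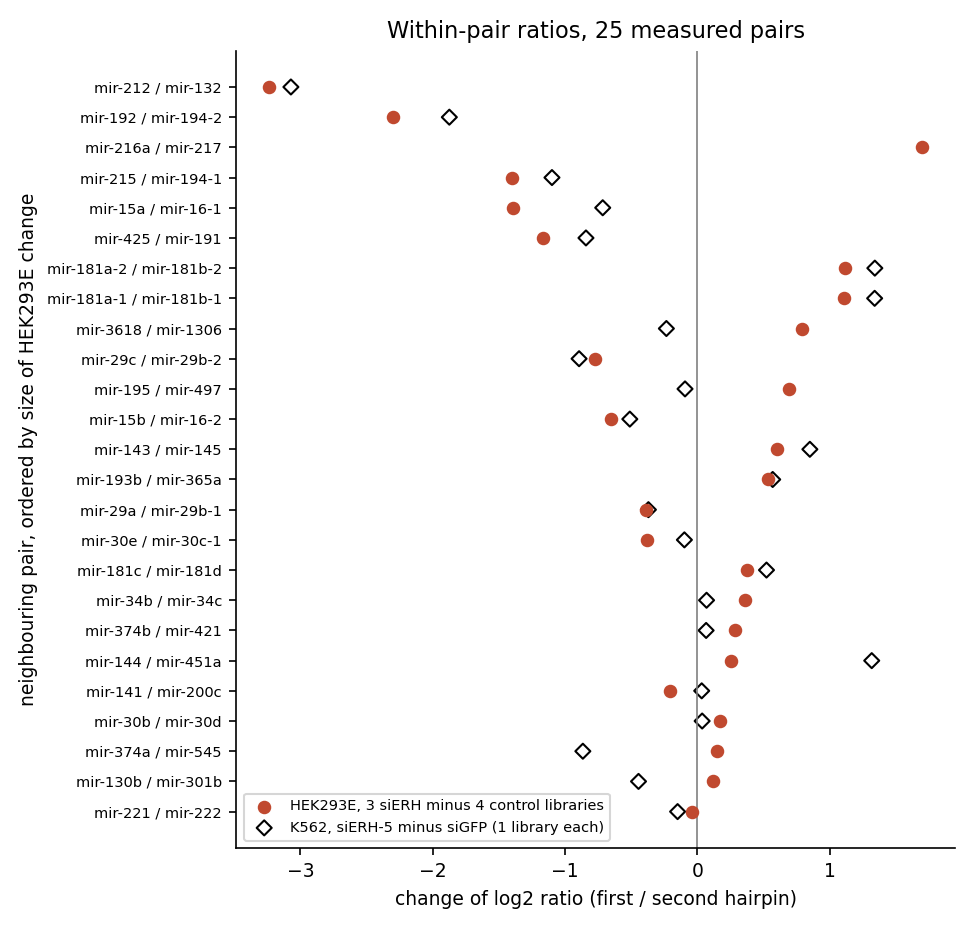
Change in the log2 ratio of the first to the second hairpin for each measured pair of the list, in HEK293E (red circles, mean of 3 siERH minus mean of 4 control libraries) and in K562 (open diamonds, siERH-5 minus siGFP, 1 library each, where measured). Pairs are ordered by the size of the HEK293E change. mir-212 / mir-132, chosen for the fall of hsa-mir-212 with siERH, stands farthest from 0 in both lines, at -3.24 and -3.07.

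Other hairpins near the pair on chromosome 17 were few. Of 3 further hairpins within 1 Mb, hsa-mir-22, a broadly expressed miRNA, had 1739 ± 413 CPM (SD, n = 4) in HEK293E controls and 1564 ± 185 CPM (SD, n = 3) with siERH, a change of -0.15 ± 0.20 on the log2 scale (SE; adjusted p = 0.580, edgeR). hsa-mir-6776 (3 to 8 counts per HEK293E library) and hsa-mir-1253 (0 or 1 count) were too low to be tested.

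The pair belongs to the miRNAs known from neurons, and a list of 22 other hairpins, taken here as neuron-enriched, was described in the same HEK293E comparison. Whether each is enriched in neurons was not tested. Of the 20 tested, 9 were lower with siERH and 0 higher, with a median log2 fold change of -0.36 against -0.01 over all 773 hairpins, of which 16.2% were lower. By name without copy numbers, these 9 are 4 of the 10 miRNAs tested. How reads were divided among copies is not given in the sources used here, so copies may not be separate measurements. The 3 copies of hsa-mir-124, a brain-specific miRNA, fell most, with hsa-mir-124-3 at -3.01 ± 0.22 (SE; edgeR adjusted p = 5.53e-06). The copies of hsa-mir-153, hsa-mir-129 and hsa-mir-219a changed by -0.73 to -0.51. The 3 copies of hsa-mir-9, a neural progenitor miRNA, did not pass, at -0.36 each (edgeR adjusted p = 0.0968 to 0.0998), nor did hsa-mir-137, hsa-mir-184 and the copies of hsa-mir-128, hsa-mir-138 and hsa-mir-218. The list was chosen with these results known, so its counts are a description and no enrichment is read from them. On library totals 3 of the 20 were lower and 0 higher, with a median of -0.16, where 67 of all 773 (8.67%) were lower and the median was 0.19. With DESeq2 12 of the 20 were lower and 0 higher, where 153 of all 773 were lower. With the replicate block 12 were lower and 0 higher, where 159 of all 773 were lower.

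The hairpins whose log2(CPM + 1) with TMM followed each member most closely over the 7 HEK293E libraries were sought among 678 others, with 1 copy per name. For hsa-mir-212 these were hsa-mir-19a (Pearson's r = 0.996), hsa-mir-532 (0.994) and hsa-mir-338 (0.990), each with a smaller change than hsa-mir-212. hsa-mir-19a had a mean of 22931 CPM in controls and 12723 CPM with siERH. For hsa-mir-132 they were hsa-mir-574 (0.988), hsa-mir-107 (0.983) and hsa-mir-103a-2 (0.980), and hsa-mir-107 had 12055 CPM in controls and 11906 CPM with siERH. The members of the pair correlated with each other at 0.152, which placed hsa-mir-132 301st among the 678 for hsa-mir-212. These correlations rest on 7 libraries that share their scaling and replicate structure. They also span the control and siERH libraries, so those of hsa-mir-212 contain the difference for which it was chosen. Nothing beyond that difference is read from them.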

How the data were processed

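The authors deposited raw read counts per hairpin, whole numbers with 2336 blank cells that were read as 0, and RPM values. In the deposited RPM, 1 had been added to every count before scaling to the total of the 1485 raised counts, to within a relative 1.1e-09. Per the submitters' processing notes, cutadapt, Bowtie2 and bedtools were used with build hg38. Versions, annotation and the treatment of reads that fit several hairpins are not given in the sources used here. Reads of the spike-in RNAs were left aside, so levels are relative to other hairpins.

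Counts were fitted with edgeR 4.0.16 (quasi-likelihood test, TMM, R 4.3.3) on hairpins that averaged 10 or more counts in the libraries fitted, with Benjamini-Hochberg adjustment over all of them. Comparisons were siERH against control (3 and 4 libraries), siControl against siGFP (2 and 2), and K562 against HEK293E with siGFP (9 libraries, 6 groups, 3 residual degrees of freedom). Standard errors are the log2 fold change over the square root of F, and intervals span 1.96 SE. Alternatives used DESeq2 1.42.0, limma 3.58.1 on log2(RPM + 1) and log2(RPM + 10), other filters, library totals and left-out libraries. On simulated counts with 200 of 773 hairpins changed, the siERH fit called 134 at 2-fold. With 200 of 790 changed, the fit between lines called 6 at 2-fold and 175 at 4-fold, so it would miss most 2-fold differences.

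Replicate numbers coincide with the labels' experimental groups, and deviations of same-numbered HEK293E libraries correlated across hairpins (r = 0.692, 0.480 and 0.519 for the 3 pairs of siRNAs), so the numbers were taken to pair the libraries. The main fits had no replicate block, so their standard errors and calls leave this pairing out. The block was run as an alternative within HEK293E. The members and lists were chosen with earlier results of these data known. Named hairpins are the members, listed pairs with the 3 greatest changes, hairpins within 1 Mb and the 3 closest in pattern to each member. The marker hairpins were a separate list. Outside the rule, the members of the neuron-enriched list, the hairpins next to hsa-mir-212 in order of change and the 4 pairs ahead of it were named after their values were seen. GENCODE release 29 gave positions and hairpins for 1480 of 1485 rows, and both members matched RefSeq. Folding used RNAfold 2.7.2 with default settings.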

Additional observations from a re-analysis of the deposited data

How the results depend on the processing

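hsa-mir-212 stayed between -3.55 and -2.38 (log2) in HEK293E siERH libraries under the 18 alternatives run, lowest in size with limma on log2(RPM + 10) (-2.38), where the pseudocount is near its siERH level. The ratio of the pair stayed between -3.41 and -3.02 in HEK293E over 11 alternatives and between -3.07 and -2.80 in K562 over 3. Between siControl and siGFP, the members passed under none of 11 alternatives, and the ratio ran from -0.44 to 0.08 with 1 library left out. With the replicate block, hsa-mir-212 stood at -3.30 and the HEK293E siERH counts were 159 lower and 217 higher, and the block changed no call of hsa-mir-132, nor of hsa-mir-212 between the control siRNAs.

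Counts of hairpins moved as follows, and the cause of a move was not tested. Some of the settings used fewer hairpins or libraries. For siERH against control (125 lower, 184 higher), 67 were lower on library totals, 66 by limma at a pseudocount of 1 RPM and 63 by limma at 10 RPM, with 24.0%, 23.7% and 22.3% of calls lower in place of 40.5% and the median moved by 0.20, 0.21 and 0.15. With a mean of at least 100 counts, 63 were lower and 82 higher. Leaving out 1 library gave 76 to 130 lower and 136 to 189 higher, lowest without siERH-3 replicate 2 and, at 77 lower, without siERH-3 replicate 1. For siControl against siGFP (0 and 0), DESeq2 and no filter each gave 2 lower and 2 higher, the replicate block 61 and 72, and 1 library left out 0 lower and 0 to 1 higher. Its median moved by -0.13 on library totals and by -0.11 by limma at 1 RPM.

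For K562 against HEK293E (216 lower, 166 higher), library totals gave 400 and 89, limma on log2(RPM + 1) 412 and 89, limma on log2(RPM + 10) 377 and 92, and a mean of at least 100 counts 138 and 97. Medians moved by -1.14, -0.94 and -0.37 under the first 3. There hsa-mir-212 passed at -1.89, -1.78 and -1.57 and hsa-mir-132 at -1.44, -1.42 and -1.39 (adjusted p 0.00585 to 0.0295). Leaving out 1 library gave 186 to 220 lower and 148 to 174 higher. Depth limits hsa-mir-212 most in the siERH libraries, where it had 29 to 67 counts.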
